A study of Mus musculus with 14 samples.

Results

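The 300 gene bodies with the lowest H3K27me3 scores were examined in mouse tumor-derived cells. They were selected on the H3K27me3 column of the authors' deposited table of gene body scores, which holds 22470 entries. Mitochondrial genes and predicted or clone-named symbols (3160 entries) were left out, the other 19310 were ranked by their H3K27me3 score, and the 300 lowest were kept. The members were thus chosen by these scores, which are described here without a test. RefSeq matched 299 of the 300, of which 298 are protein-coding genes and 1, Gsdmcl2, is a transcribed pseudogene. The gene named Ube2d4 had no match.

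The cells, of strain C57BL/6 and between passages 6 and 8, were given a guide RNA that was either a control (sgControl) or directed against NSD3 (sgNSD3), so both groups carried a guide. The 14 samples comprised 6 of total RNA (3 per guide), 4 for H3K36me2 (2 per guide), 2 for H3K27me3 (1 per guide) and 2 for the IgG control (1 per guide). The labels do not name the tumor or say how many lines or clones were used, and nothing says that the 3 RNA libraries of a guide came from separate cultures. Their p-values therefore measure the spread between these libraries, which may be technical. Of the IgG samples, the one titled sgNSD3 has an sgControl source label, and both carry an H3K36me2 antibody label.

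H3K27me3, the trimethyl mark on lysine 27 of histone H3, is written by the Polycomb repressive complex PRC2, whose catalytic subunit is Ezh2 or Ezh1. It typically lies over silent developmental regulators, often at promoters rich in CpG dinucleotides. H3K36me2, the dimethyl mark on lysine 36, is written by enzymes of the NSD family, of which Nsd3 is 1 member, and it is known to hinder PRC2 on the same histone tail. A score per gene body was deposited in 1 column for H3K27me3 and in 2 columns for H3K36me2. Which libraries each score sets against which, and in what order, is not stated. A low score therefore cannot be read as a loss or a gain of the mark between the guides, nor as a low amount of it.

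Before the values, the upstream sequences of 5 members are shown, because genes of development made up a larger share of the set than of all gene bodies. Each is the 250 bases directly before the gene's span in RefSeq (GRCm38.p6, mm10), written 5′ to 3′ on the gene's strand, with every CG dinucleotide in capitals. They were picked after the values were seen. Isl1 (chr13:116309689-116309938, minus strand), Nkx3-2 (chr5:41764221-41764470, minus strand) and Lhx1 (chr11:84525535-84525784, minus strand) encode homeodomain transcription factors. Fzd10 (chr5:128600856-128601105, plus strand) encodes a frizzled receptor for Wnt ligands, and Fmod (chr1:134037004-134037253, plus strand) encodes fibromodulin, a collagen-binding matrix proteoglycan.
Isl1: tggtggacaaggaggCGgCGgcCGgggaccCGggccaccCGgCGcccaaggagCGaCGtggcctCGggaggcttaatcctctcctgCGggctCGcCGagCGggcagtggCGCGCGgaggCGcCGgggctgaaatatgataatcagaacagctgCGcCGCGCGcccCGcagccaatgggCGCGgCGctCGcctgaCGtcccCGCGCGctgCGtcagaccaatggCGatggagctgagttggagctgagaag
Fzd10: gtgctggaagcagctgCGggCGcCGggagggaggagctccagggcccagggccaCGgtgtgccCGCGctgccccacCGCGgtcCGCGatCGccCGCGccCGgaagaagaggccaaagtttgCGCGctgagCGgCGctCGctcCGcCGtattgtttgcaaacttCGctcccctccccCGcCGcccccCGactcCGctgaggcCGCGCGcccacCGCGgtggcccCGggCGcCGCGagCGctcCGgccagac
Nkx3-2: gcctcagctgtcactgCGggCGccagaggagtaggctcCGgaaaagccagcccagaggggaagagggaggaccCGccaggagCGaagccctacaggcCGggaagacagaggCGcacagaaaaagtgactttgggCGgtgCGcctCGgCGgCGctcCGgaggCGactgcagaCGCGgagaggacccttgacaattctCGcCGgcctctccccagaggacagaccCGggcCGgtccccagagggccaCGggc
Lhx1: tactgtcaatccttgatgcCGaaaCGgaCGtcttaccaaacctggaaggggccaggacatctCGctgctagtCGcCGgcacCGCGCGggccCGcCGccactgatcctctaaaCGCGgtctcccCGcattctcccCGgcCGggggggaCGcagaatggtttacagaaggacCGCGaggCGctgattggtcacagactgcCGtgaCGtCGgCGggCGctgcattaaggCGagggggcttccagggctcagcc
Fmod: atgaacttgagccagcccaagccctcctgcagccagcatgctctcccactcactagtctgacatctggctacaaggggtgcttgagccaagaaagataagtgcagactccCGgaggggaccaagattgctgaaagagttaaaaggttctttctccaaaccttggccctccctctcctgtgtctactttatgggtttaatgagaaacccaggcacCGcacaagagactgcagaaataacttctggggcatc
The window of Fzd10 held 37 CG dinucleotides, that of Isl1 33, that of Lhx1 26 and that of Nkx3-2 21, against 2 for Fmod. Other members whose windows were read but are not shown held fewer than those 4, with 11 for the homeobox gene Vax1, 14 for Sgcb, 13 for Rtn2 and 6 for Acy3. Over 32851 mouse promoters of the same length in the RefSeq table the median was 6, and 17.9% held at least 20. As many as in Fzd10 were found in 2.2% of those promoters, and as many as in Isl1 in 4.03%. A promoter sequence was matched for 215 of the 300 members, under the 80% needed, so a comparison of CG content over the whole set is void.

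The scores of the set ran from -1.907 to -0.2284 with a median of -0.2759 in the authors' deposited table, where the median of all 19310 gene bodies was -0.02657 and 31.0% lay above 0. Aida, which encodes an axin-interacting protein of dorsal patterning, stood alone at -1.907 in the authors' deposited table. Also low in the authors' deposited table were Acy3, an aminoacylase, at -0.5152, and Drg1, a GTP-binding protein, at -0.5147. They were followed in the authors' deposited table by Rtn2, a reticulon, at -0.4914, Heatr1, a nucleolar protein, at -0.4857 and Evx2, a homeobox factor encoded beside the Hoxd cluster, at -0.472. Kbtbd11 at -0.4528, the protein kinase C gene Prkch at -0.4517 and the lipid kinase gene Pip5k1b at -0.4489 closed the lowest 10 in the authors' deposited table.

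The boundary of the set fell in a continuous stretch of scores. In the authors' deposited table Vit and Zpbp2 at -0.2294, Sebox at -0.2293, Aim1l at -0.229 and Paqr4 at -0.2284 lay just inside. Foxa3, Ddx20 and Zfyve27 at -0.2283 and Enox1 and Ldoc1l at -0.2281 lay just outside in the authors' deposited table. With no symbol left out, 264 members (88.0%) would stay among the 300 lowest, joined by all 13 mitochondrial genes, whose median score was -1.77 in the authors' deposited table, and by 23 predicted or clone-named genes. Many gene bodies carry exactly the same score, within 1e-06. In the H3K27me3 column of the authors' deposited table such shared values were held by 5.33% of the members and by 42.5% of all gene bodies.

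**Figure D1:**
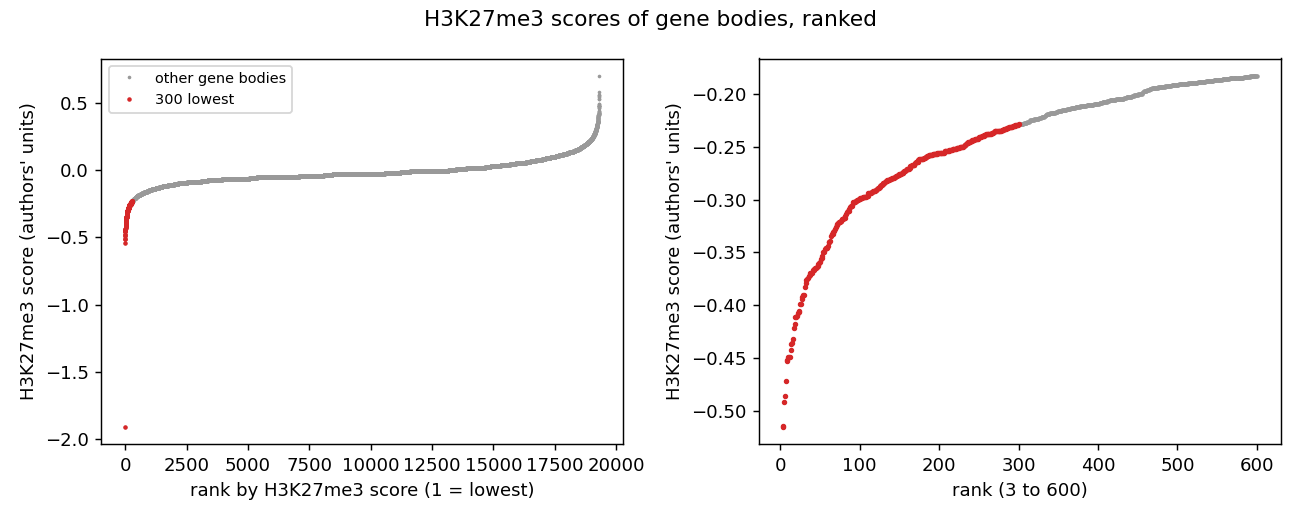
H3K27me3 score (vertical axis, in the authors' units) against rank from the lowest, for all 19310 gene bodies (left) and for ranks 3 to 600 (right). Red points are the 300 lowest; Aida lies apart at -1.907, and no gap separates rank 300 from rank 301.

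Regulators of embryonic patterning were the largest of the classes assigned to the members. From a list of homeobox and other developmental factor families, 16 members (5.33%) were found, against 204 of all 19310 gene bodies (1.06%). By rank they were the genes Dlx3, Nkx3-2, Wnt8b, Pax7, Hoxd1, Nkx2-4, Foxd4, Pax6, Sox10, Lhx1, Tbx21, Six2, Nkx6-1, Nkx2-5, Pou1f1 and Nkx6-3, all transcription factors except the ligand Wnt8b. Among them Pax7 specifies muscle satellite cells, Pax6 the eye, Sox10 the neural crest, Tbx21 T helper cells and Nkx2-5 the heart. A further class, drawn up after the members were seen and so open to choice, held 28 members (9.33%) against 138 of all gene bodies (0.715%). It includes the homeobox genes Evx2, Rax, Hmx3, Pitx1, Pitx3, Vax1, Alx4, Lmx1b and Isl1, the bHLH genes Ascl4, Ascl5, Hes5 and Heyl, and the doublesex-related factors Dmrt1 and Dmrt3.

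Together the 44 factors made up 14.7% of the set and 1.77% of all gene bodies. These shares, and those below, rest in large part on the class drawn up after the members were seen. The 300 gene bodies with the highest H3K27me3 scores held 13 such genes (4.33%), so developmental factors lay at both ends of the ranking. Most of the 44 had little RNA. Only 9 reached a mean of 8 normalized counts, the minimum for the RNA test, and 6 had 0 reads in all 6 libraries. Among the 147 members below that minimum, 35 (23.8%) were factors, against 181 of the 6843 gene bodies below it (2.65%), so the larger share was also present among genes of little or no RNA.

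Signalling, ion channel and vesicle genes were also found, in classes drawn up after the members were seen. Ligands and receptors of the BMP, activin, Notch, frizzled and FGF families counted 7 members (2.33%) against 85 of all gene bodies (0.44%). They were Bmp3 and Bmp7, the activin subunit Inhbb, the receptor Acvrl1, Fzd10, the FGF co-receptor Klb and the Notch ligand Dll1. Ion channels counted 7 (2.33% against 0.865%), among them the calcium channel subunits Cacna1a and Cacna1h. Synaptotagmins, which are calcium sensors of vesicle release, and neuronal pentraxins counted 5 (1.67% against 0.104%), and interleukins with their receptors 4 (1.33% against 0.425%). The 300 highest H3K27me3 scores held 8 ion channels, 1 of those ligands and receptors, 1 interleukin gene and 0 synaptotagmins or pentraxins. Ion channels thus lay at both ends of the ranking. Solute carriers (5 members, 1.67% against 1.97%) and Tmem genes (3 members, 1.0% against 1.22%) had shares near the background.

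Receptor families of smell and taste had smaller shares of the set than of all gene bodies. Olfactory receptors, the largest mouse gene family, gave 2 members, Olfr1418 and Olfr70, or 0.667% against 5.72% of all gene bodies. The symbol class of vomeronasal and taste receptors gave 1, the trace amine-associated receptor Taar3, which is neither, against 1.95%. Zinc finger genes gave 4 (1.33% against 2.24%), namely Zfp41, Zfp541, Zbtb43 and Zfp653. Mitochondrial ribosomal proteins gave 2, Mrps2 and Mrps17 (0.667% against 0.399%). No member was a histone (0 of 84), a cytosolic ribosomal protein (0 of 123), a respiratory chain subunit (0 of 93) or a proteasome subunit (0 of 45), classes so small that the set's 1.55% of all gene bodies would give few members. A symbol pattern meant for antisense RNAs caught 3 coding genes, Npas2, Otos and Fras1, and no antisense RNA.

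**Figure D2:**
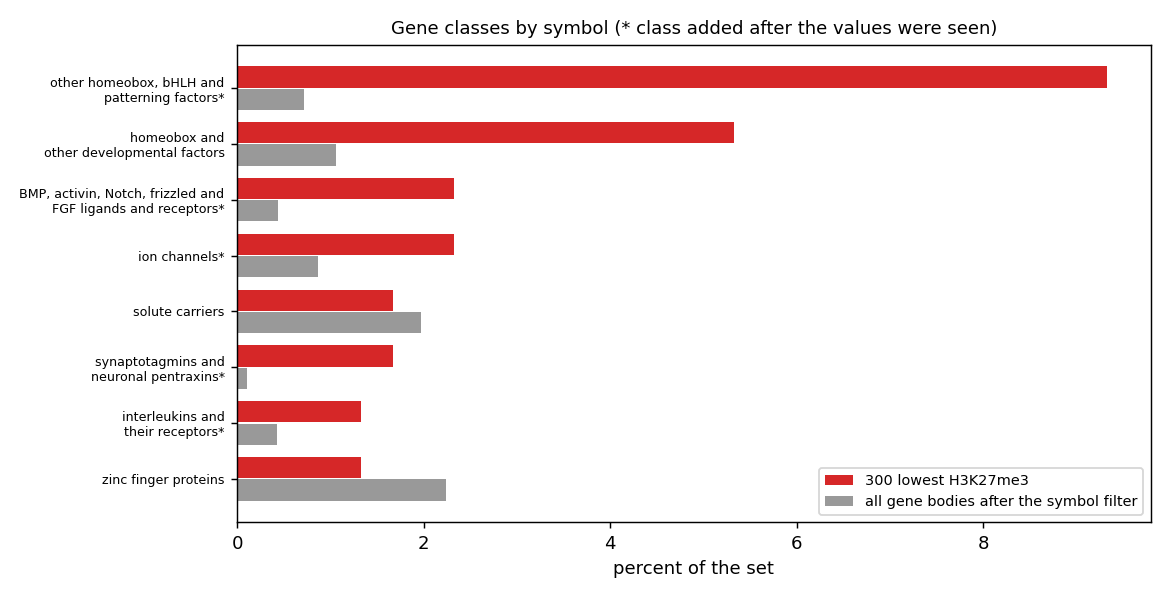
Percent of the 300 members (red) and of all 19310 gene bodies (grey) in 8 gene classes assigned by symbol; an asterisk marks a class drawn up after the members were seen. The 2 classes of developmental factors reach 9.33% and 5.33% of the members, against 0.715% and 1.06% of all gene bodies.

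The members were unevenly spread over the chromosomes. Chromosome 19 held 29 members, or 4.42% of its 656 ranked gene bodies, chromosome 15 held 28 (3.87% of 724) and chromosome 2 held 48 (2.94% of 1634). Chromosome 14 held 3 of 674, and the X chromosome none of 709. These 3 and chromosome 4 (24 members, 2.12% of 1133) were the 4 densest, with 129 of the 299 placed members (43.1%) against 21.6% of all placed gene bodies. Chromosome 11 followed with 29 (1.96% of 1478). In the authors' deposited table the median H3K27me3 score of all gene bodies was -0.0486 on chromosome 19 and -0.0476 on chromosome 15, against -0.00396 on the X chromosome. What part of a member's score goes with its chromosome was not tested.

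Some members were neighbours. Within 100 kb of another member lay 52 of them, in 29 pairs, against 35 in 18 pairs among the 300 highest scores. Dmrt1 and Dmrt3 lie 5918 bases apart on chromosome 19. Oxt and Avp, which encode the hormones oxytocin and vasopressin, lie 3566 bases apart on chromosome 2. The receptor kinase gene Ltk lies 73 bases from the kinase gene Itpka on chromosome 2, and the receptor kinase gene Tyro3 lies 37309 bases from Ltk. Ren1, which encodes renin, lies between Golt1a and Etnk2 on chromosome 1. Gene spans had a median of 16.86 kb in the set and 18.65 kb over all gene bodies.

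H3K36me2 scores of the members were close to those of all gene bodies. In the first H3K36me2 column of the authors' deposited table the median was 0.08943 in the set and 0.07724 over all gene bodies, with 171 members (57.0%) above that level. In the second column of the authors' deposited table the medians were 0.1341 and 0.1316, with 164 members (54.67%) above. Scores above 0 in the authors' deposited table were held by 286 members (95.33%, against 92.19% of all) in the first column and by 290 (96.67%, against 95.24%) in the second. No member was below 0 in both columns of the authors' deposited table, and neither was any gene body of ranks 301 to 600. The 300 highest H3K27me3 scores gave 2, and all 19310 gene bodies 110, so few would fall in any set of 300. The quartiles of the set overlapped widely with the rest, at 0.04962 to 0.1284 against 0.03897 to 0.1157 in the first column of the authors' deposited table.

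The columns ranked the members differently. In the authors' deposited table, Spearman's correlation of the first with the second H3K36me2 column was 0.1216 across the 300 members and 0.1536 across all 19310 gene bodies, which share libraries and are not independent. Between the H3K27me3 score and the mean H3K36me2 score of the authors' deposited table it was -0.07095 across the members and -0.1325 across all. Of the 300 highest mean H3K36me2 scores 9 (3.0%) were members, and of the 300 lowest 1 (0.333%), where the set is 1.55% of all gene bodies.

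Aida and Drg1 carried far larger H3K36me2 scores than the rest. In the authors' deposited table Drg1 had 3.863 and 4.593 and Aida 2.283 and 5.107 in the first and second column. Cdk8, a kinase of the Mediator complex, had 0.9445 in the second column of the authors' deposited table but 0.09997 in the first. Enthd1 (0.1669 and 0.5052) and Wnt8b, a Wnt ligand of the forebrain (0.07573 and 0.4712), came next in the authors' deposited table. At the low end of the authors' deposited table lay Adck5 (0.01076 and -0.02163), Thop1 (0.02338 and -0.02069), Mafa (-0.01224 and 0.01158), Mov10l1 (-0.03569 and 0.03038) and Olfr1418 (-0.0378 and 0.02974). Leaving out Aida, Drg1 and Cdk8 gave medians of 0.08756 and 0.1341 in the authors' deposited table.

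**Figure D3:**
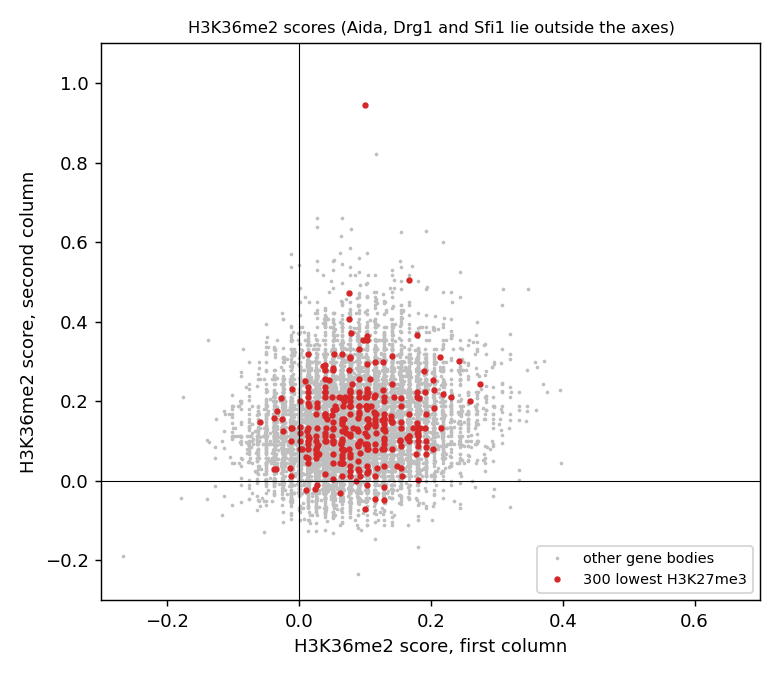
H3K36me2 score in the second column against the first, in the authors' units; each point is a gene body, with the 300 members in red. The members lie within the cloud of other gene bodies, apart from Cdk8 at 0.9445; Aida and Drg1, and the non-member Sfi1, lie outside the axes.

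RNA was read from 6 libraries with recovered totals of 20294828 to 21863833 counts. Comparing libraries by a chi-square over genes, divided by its degrees of freedom, gave 1.3 to 1.41 between sgNSD3 libraries, close to counting error, and 2.7 to 8.92 between sgControl libraries, against 6.66 to 7.5 across guides. It was 5.97 and 8.92 for the pairs with sgControl library 1, which thus stood apart from the other sgControl libraries. Nsd3 itself, the gene the guide targets, had normalized counts of 14568, 14402 and 14675 in the sgControl libraries, against 21989, 22012 and 21837 in those titled sgNSD3. Its RNA was 1.51-fold higher in the latter (log2 0.59 ± 0.025 SE, limma adjusted p = 5.86e-14). A guide need not lower the RNA of its target, so these counts do not show whether Nsd3 was disrupted. The deposited columns of these libraries are headed KO. The group is called the libraries labelled sgNSD3 and each direction below is between labels. Summed markers of simple epithelium ranged from 4055 to 4566 normalized counts in sgControl and from 2935 to 2951 in the libraries labelled sgNSD3, with 3 of 5 markers at 8 counts or more and Epcam at 0. Squamous markers (2 of 7 at 8 or more, Dsg3 at 0) ranged from 222.3 to 271.6 and from 155.0 to 183.8, mesenchymal markers (6 of 6) from 1008000 to 1086000 and from 1148000 to 1158000, endothelial markers (2 of 4) from 119.8 to 144.5 and from 197.4 to 236.8, and immune markers (1 of 5, Cd3e at 0) from 71.03 to 87.08 and from 62.01 to 75.27. Their part in the results below was not tested, and in bulk RNA fewer cells of a type and less RNA per cell cannot be told apart.

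RNA of 147 members was below the minimum for the test. Of the 300, 35 (11.67%) had 0 reads in every library, 112 had some reads but a mean under 8 normalized counts, and 153 (51.0%) were tested. Of all 19310 gene bodies 64.56% were tested, and of the 300 highest H3K27me3 scores 57 (19%). Evx2 and Dmrt1 had 0 reads in all 6 libraries. Prostacyclin synthase, Ptgis, had the highest mean normalized count, with 7103, 7183 and 6693 for sgControl against 6474, 6659 and 6602 for sgNSD3 (limma adjusted p = 0.0641). It was followed by Pdlim7, Arpc5, Fam107b, Add3, Lmtk2, Slc15a3 and Fras1, which had means of 1914 or more. Counts are not per length, so no order of RNA levels between genes follows from them.

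The RNA of 29 tested members was lower in the libraries labelled sgNSD3 and that of 8 was higher, at a limma adjusted p under 0.05. That is 18.95% lower and 5.229% higher of 153. Over all 18263 tested genes 6.44% were lower and 5.44% higher, and over the 12467 tested gene bodies of the ranking 8.198% and 6.505%. The median log2 fold of the tested members was -0.04648, against -0.01132 over those gene bodies, and the members' quartiles were -0.2611 and 0.1138. Without sgControl library 1, 23 members were lower and 8 higher. Lower calls numbered 17, 16 and 18 without sgNSD3 library 1, 2 or 3, and higher calls numbered 5 without sgNSD3 library 3. Without any overlap between the guides, 47 members were lower (30.7%) and 19 higher (12.4%), where 14.4% and 14.0% of all tested genes were. Of the 12467 tested gene bodies of the ranking, 2190 were lower and 1806 higher without overlap.

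The larger share of lower members was present at each level of RNA. Among genes with 8 to 32 normalized counts 5 of 45 members were lower (11.1%, against 4.56% of gene bodies), and from 32 to 128 counts 10 of 37 (27% against 5.28%). From 128 to 512 counts 7 of 36 were lower (19.4% against 5.23%), and at 512 or more 7 of 35 (20% against 11.6%). On the 4 chromosomes densest in members (2, 4, 15 and 19) 10 of 63 were lower (15.9% against 7.0%), and on the others 19 of 90 (21.1% against 8.53%). With chromosome 11 in place of 4 these counts were 9 of 73 and 20 of 80. Ranks 1 to 150 gave 14 lower of 74 tested (18.92%), ranks 151 to 300 gave 15 of 79 (18.99%) and ranks 301 to 600, outside the set, 18 of 148 (12.16%). The 300 highest scores gave 4 lower (7.018%) and 7 higher (12.28%) of 57. These divisions were made after the values were seen and carry no test.

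**Figure D4:**
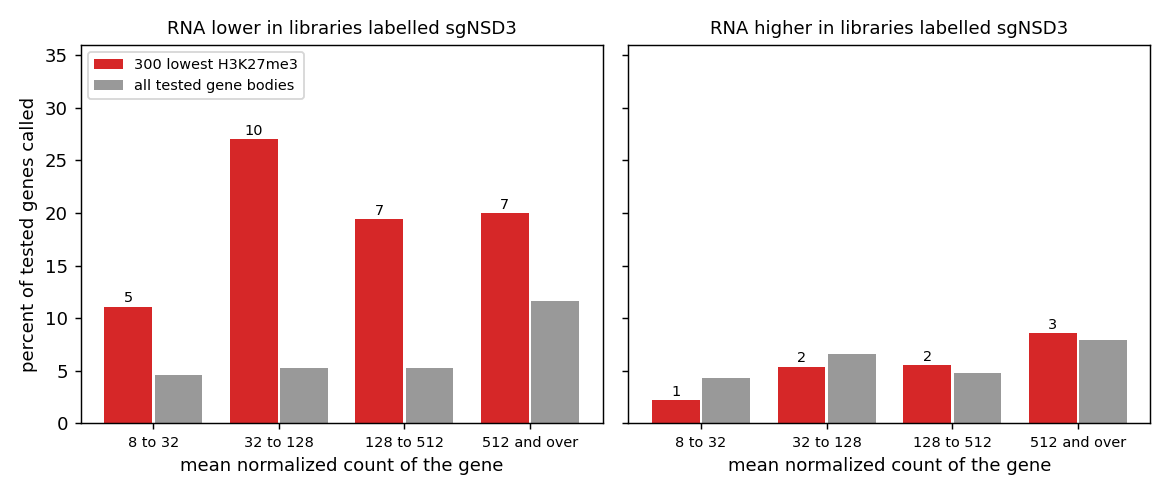
Percent of tested genes called lower (left) or higher (right) in the libraries labelled sgNSD3, by mean normalized count, for members (red, with their number above the bar) and all tested gene bodies (grey). The members' share of lower calls is above that of all gene bodies in each of the 4 ranges, from 11.1% to 27%, and the higher calls number 1 to 3 per range.

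The lower members with the largest differences on the deposited log2 scale were, in order, Rab6b, Fzd10, Ppm1h, Prkch, Pip5k1b, Prkcz, Myo7a, Grip1, Isl1 and Lrp3. Rab6b (chr9:103111667-103185276), a small GTPase of retrograde transport in neurons, had 714.5, 675.6 and 718.6 normalized counts for sgControl, against 392.7, 425.7 and 410.6 for the libraries labelled sgNSD3. The groups stood clear of each other, with means of 702.9 ± 23.7 and 409.7 ± 16.5 (SD, n = 3 each), a 1.72-fold fall (log2 -0.78 ± 0.058 SE, limma adjusted p = 6.44e-10). Pip5k1b (chr19:24294794-24555872), a kinase that makes phosphatidylinositol bisphosphate, had 20.89, 24.88 and 17.25 counts against 5.167, 7.671 and 1.955. That was the largest fold among the called members, 4.26 (log2 -2.01 ± 0.38 SE, limma adjusted p = 0.000336), at low counts. Prkch (chr12:73584796-73778185), the eta form of protein kinase C, had 58.5, 67.94 and 78.15 counts against 32.04, 36.44 and 27.37, a fall in which no library of one guide reached the other (log2 -1.07 ± 0.18 SE, limma adjusted p = 0.000195).

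Prkcz, an atypical protein kinase C of cell polarity, had 382.3, 356.9 and 346.1 counts against 269.7, 277.1 and 260.0 (limma adjusted p = 0.000269). Ppm1h, a protein phosphatase, had 391.7, 390.4 and 419.2 against 266.6, 310.7 and 298.2, a 1.37-fold fall (limma adjusted p = 0.000113). Myo7a, an unconventional myosin of hair cells, had 611.1, 602.9 and 619.1 against 466.1, 520.7 and 479.0 (log2 -0.32 ± 0.058 SE, limma adjusted p = 0.000413). In these genes every library labelled sgNSD3 was below every sgControl library. Lrp3, a receptor of the LDL receptor family, fell 1.84-fold (limma adjusted p = 0.00405). Grip1, a scaffold for glutamate receptors, fell 1.57-fold (limma adjusted p = 0.00866), but its call was lost without sgControl library 1 or sgNSD3 library 1.

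Some ligands and receptors of developmental signalling, a class drawn up after the members were seen, were also lower. Fzd10 (chr5:128601106-128604093), whose CG-dense upstream window is printed above, had 47.01, 39.23 and 55.82 counts against 24.8, 13.42 and 13.69. The means were 47.35 ± 8.30 and 17.3 ± 6.5 (SD, n = 3 each), a 2.74-fold fall (log2 -1.44 ± 0.25 SE, limma adjusted p = 0.000158). Bmp7, a bone morphogenetic protein, had 17.76, 14.35 and 18.27 counts against 9.301, 3.835 and 6.843, a 2.52-fold fall at low counts (limma adjusted p = 0.0134). Inhbb, a subunit of activin B and inhibin B, had 902.5, 843.1 and 849.5 against 751.3, 697.1 and 773.3, a smaller fall of 1.17-fold (limma adjusted p = 0.00452). Without sgNSD3 library 2 neither Bmp7 nor Inhbb passed. Of the 7 members of that class 4 were tested and 3 fell, where 8.198% of all tested gene bodies of the ranking were lower. So few tested genes give no share for the class. Dll1, the fourth, had 27.16, 17.22 and 13.19 counts against 16.54, 18.22 and 18.57 (limma adjusted p = 0.912). Tyro3, a receptor tyrosine kinase that binds Gas6, fell from 254.1 ± 16.1 to 205.7 ± 21 counts (SD, n = 3 each, limma adjusted p = 0.0284), and did not pass without sgControl library 1, sgNSD3 library 1 or sgNSD3 library 2.

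Of the 44 developmental factors, 9 were tested and 4 fell, with none higher. Of the 161 tested factors among all gene bodies, these 9 included, 14 fell and 6 rose. The class drawn up after the members were seen gave 7 of the 9, among them Isl1, Cux2 and Prdm16. The counts are thus open to choice. The first list gave 2 tested members, of which Nkx6-1 fell. Isl1 (chr13:116298270-116309688), a homeodomain factor of motor neurons, heart and pancreas, had 21.94, 25.84 and 23.34 counts against 9.301, 5.753 and 11.73. Its fall of 2.65-fold was larger than the spread (log2 -1.36 ± 0.30 SE, limma adjusted p = 0.00253) and stayed past the threshold with any 1 library left out. Nkx6-1, a factor of beta cells and motor neurons, had 38.65, 38.28 and 51.76 against 31.0, 29.72 and 16.62 (limma adjusted p = 0.0347). Cux2, a factor of upper-layer cortical neurons, had 158.8, 144.5 and 166.4 against 118.8, 117.9 and 104.6 (limma adjusted p = 0.00669). Prdm16, a zinc finger factor of brown fat, had 133.7, 122.5 and 155.3 against 102.3, 90.13 and 103.6 (limma adjusted p = 0.0118). For Nkx6-1, Cux2 and Prdm16 the libraries did not overlap. The call of Nkx6-1 was lost without sgControl library 3, sgNSD3 library 2 or sgNSD3 library 3, that of Cux2 without sgNSD3 library 3, and that of Prdm16 without sgControl library 3 or sgNSD3 library 2. Mafa, a beta cell factor outside both lists, fell 1.76-fold (limma adjusted p = 0.0189), a call lost without sgControl library 1 or any 1 of the sgNSD3 libraries.

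The other lower members had smaller or less certain falls. Sgcb, beta-sarcoglycan of the muscle membrane complex, had 521.2, 511.0 and 566.3 counts against 456.8, 426.7 and 446.7 and kept its call without any 1 library (limma adjusted p = 0.00532). Kbtbd11, eighth in the H3K27me3 ranking, had 54.32, 63.16 and 65.97 against 49.61, 32.6 and 38.13 (limma adjusted p = 0.0276), and did not pass without library 2 or 3 of either guide. Fam189a2, Osbpl6, Ostm1, Slfn14, Smco3, Arpc5, Nptxr, Ak8, Thop1 and Paqr4 were called too, and for Paqr4 the libraries of the guides overlapped. Each of these 10 lost its call when at least 2 of the 6 libraries were left out in turn. The spans of Smco3 and its neighbour BC049715, also a member, touch or overlap, and whether counting used strand is not stated, so their reads may be shared. Over all 29 the fold ran from 1.09 to 4.26 with a median of 1.39, on 15 chromosomes.

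Matrix, receptor and channel genes were among the 8 members with higher RNA. Fmod (chr1:134037254-134048280) had 324.9, 262.2 and 359.3 counts in sgControl and 412.3, 439.2 and 412.5 in the libraries labelled sgNSD3. It was 1.34-fold higher (log2 0.43 ± 0.086 SE, limma adjusted p = 0.00104), with no overlap. Fras1, an extracellular matrix protein of epithelial basement membranes, had 1713, 1759 and 1795 against 2015, 2047 and 2153, a 1.18-fold rise (limma adjusted p = 8.13e-05). Pcsk5, a proprotein convertase, had 454.4, 481.3 and 520.6 against 587.0, 608.9 and 591.4 (limma adjusted p = 0.00138). Fmod, Fras1 and Pcsk5 kept their calls without any 1 library.

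Lrp4, an agrin receptor and Wnt modulator, rose from 49.19 ± 3.06 to 73.18 ± 6.26 counts (SD, n = 3 each, limma adjusted p = 0.0169). Tril, a toll-like receptor accessory protein, had 6.267, 6.699 and 9.134 counts against 15.5, 19.18 and 17.6, the largest called rise by fold (log2 1.15 ± 0.32 SE, limma adjusted p = 0.0152). The calcium channel gene Cacna1h rose 1.36-fold (limma adjusted p = 0.0378), the lipid flippase gene Atp9a 1.19-fold (limma adjusted p = 0.00904) and the chromatin reader gene Phf21a, a part of the BHC histone deacetylase complex, from 1213 ± 60.1 to 1365 ± 26.5 counts (SD, n = 3 each, limma adjusted p = 0.00951). Atp9a was not called without sgNSD3 library 1, Phf21a without sgControl library 2 or sgNSD3 library 1, and Lrp4 without library 3 of either guide. Tril was not called without sgControl library 1 or 2 or sgNSD3 library 2 or 3, and Cacna1h without library 2 of either guide or sgNSD3 library 3.

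**Figure D5:**
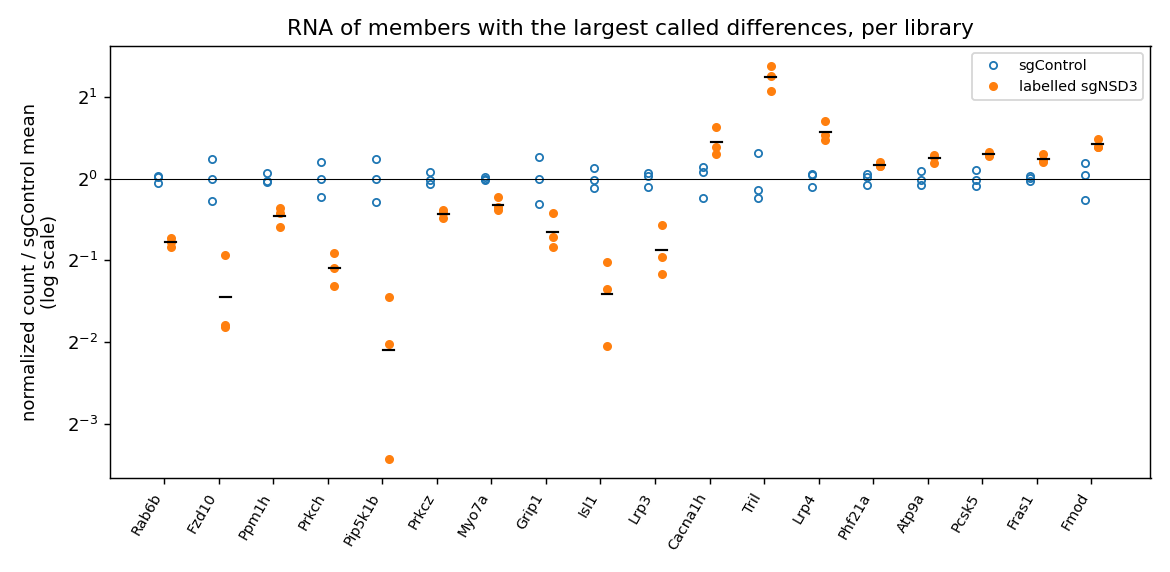
Normalized count of each library divided by the gene's sgControl mean (log scale), for the 10 lower and 8 higher members with the largest called differences on the deposited log2 scale; open circles are sgControl, filled circles the libraries labelled sgNSD3, and bars their mean. No gene shown has overlapping groups; Pip5k1b lies lowest, at a 4.26-fold fall, and Tril highest.

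A log2 fold beyond 1 in either direction was found in 8 tested members (5.229%), against 1.02% of all tested genes. Ranks 301 to 600, outside the set, gave 6 (4.054%), and the 300 highest H3K27me3 scores gave 2 (3.509%). Tested members had a median of 113.0 normalized counts, against 472.1 for all tested gene bodies. The part of low counts in these shares was not tested. Among the members Prkch, Pip5k1b, Fzd10, Bmp7, Ak8 and Isl1 were lower and Tril higher. Capn3, a muscle calpain, had 8.356, 5.742 and 3.045 counts against 9.301, 11.51 and 16.62 and was not called (log2 1.05 ± 0.39 SE, limma adjusted p = 0.0792).

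Aida and Drg1, the members with the most extreme chromatin scores, were not called in RNA. Aida, lowest in H3K27me3, had 1192, 1304 and 1331 counts for sgControl against 1288, 1292 and 1269 (limma adjusted p = 0.931). Drg1 had 1156, 1199 and 1094 against 1136, 1189 and 1100 (limma adjusted p = 0.926). The libraries overlapped for both. Acy3 (limma adjusted p = 0.698), Rtn2 (0.0864), Heatr1 (0.893) and Cdk8 (0.174) were not called either. Of the lowest 10, Kbtbd11, Prkch and Pip5k1b were called, all lower, where 8.198% of all tested gene bodies of the ranking were lower. So few genes give no share for the lowest 10. Lower calls made up 18.92% of the tested members in ranks 1 to 150 and 18.99% in ranks 151 to 300.

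Most genes that write, support or erase H3K27 methylation were not called in RNA. Of 14 such genes, 3 were higher and 0 lower, where 5.44% of all tested genes were higher and 6.44% lower. Suz12, a PRC2 core subunit, rose from 1257 ± 54.8 to 1380 ± 25.2 counts (SD, n = 3 each, limma adjusted p = 0.0369) and the demethylase gene Kdm6b rose 1.08-fold (limma adjusted p = 0.0243). Phf19, a PRC2 accessory subunit, rose from 9.01 ± 1.74 to 19.4 ± 2.34 counts (SD, n = 3 each, limma adjusted p = 0.0211). Ezh2, the catalytic subunit, was not called, at 505.5 ± 7.30 and 486.3 ± 32 counts (SD, n = 3 each).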

How the data were processed

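The submitters' processing notes name HISAT2, featureCounts, DESeq2 and mm10; versions and settings are not stated. The authors deposited RNA as log2 values and chromatin as signed scores per gene body, whose scaling is not stated. By their values, the log2 values lie on a variance-stabilised scale. Inverting it gave whole counts, within 0.05, for the values above 0, which were normalized by the size factors implied. Depth was 20294828 to 21863833 counts per library.

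RNA was tested with limma 3.58.1 (R 4.3.3, trend) on the deposited log2 values of 18263 of 55433 genes with a mean of at least 8 normalized counts, adjusted by Benjamini-Hochberg, at 0.05. Folds are ratios of mean normalized counts; log2 folds and their SE are limma's on the log2(normalized count + 1) scale, which understates low genes. The test was checked on simulated counts. Library numbers follow the titles: sgNSD3 titles 1, 2 and 3 are deposited columns 3, 1 and 2. No libraries were merged.

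Members and lists were chosen with earlier results of these data known. Named genes were the ends of each chromatin score, the 10 largest called falls and rises without overlap, the highest counts and up to 4 members per class; others were added after their values were seen. Positions are from RefSeq GRCm38.p6. Alternatives changed the normalization, pseudocount, filter, test, block and left-out library. IgG values were not analysed here. A gene that the naming rule takes is not reported here.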

Additional observations from a re-analysis of the deposited data

How the results depend on the processing

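Calls over all genes and over the members kept their counts within 1.5 times under quantile normalization, log2(normalized count + 1) and + 8, voom on recovered counts, no low filter and a minimum of 32. The members' lower calls ranged from 24 to 29 there, against 29. With 1 library left out, members' lower calls ranged from 16 to 23, members' higher calls from 5 to 8, lower calls over all genes from 707 to 1164 and higher calls from 641 to 993. Of the 37 called members 13 kept their call under each of these alternatives that tested them, and 0 reversed; of the 13, Isl1 and Pip5k1b lie under the minimum of 32 and were not tested there. With a replicate block on the title numbers 30 members were lower and 8 higher, and on the column numbers 28 and 7. Correlations of same-numbered libraries (-0.0134 to 0.046) do not show a pairing.

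The share of lower calls was 18.9% for the 150 lowest scores, 15.6% for the 600 lowest, 17.8% for spans of at least 5 kb and 22.2% without the symbol filter. Of all tested gene bodies after the symbol filter 8.198% were lower. The set without that filter includes all 13 mitochondrial genes, whose part in its share was not tested. With 3 libraries per guide, small changes of low-count members were not detectable, and the chromatin scores carry no replicate error.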
